A study of Mus musculus with 2 samples.

Results

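Peaks with a summit within 1 kb of an end of a protein-coding gene were examined in a chromatin immunoprecipitation sequencing (ChIP-seq) experiment on the established mouse myoblast line C2C12. Of the 49034 peaks on chromosomes 1 to 19, 1516 met this rule (3.09%, exact binomial 95% interval 2.94 to 3.25%), and the whole deposited list held 51356 peaks. A summit could lie inside or outside the gene span, and each peak was assigned to the nearest gene end. The rule used position alone, so the heights and lengths below did not choose the members.

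The cells were a single clone that carried MMH, a doxycycline-inducible chimeric transgene with codon-altered mouse Dux up to and including its homeodomains, joined to the codon-altered carboxy-terminal part of human DUX4. Both libraries came from cells of this clone induced for 18 h with 2 ug/ml doxycycline. In the antisera library the chimera was precipitated with a mixture of the DUX4 antisera MO488 and MO489. The control library is labelled anti-HA on the sample, whereas the series' design text names an antibody to GFP, a protein absent from these cells. Neither an uninduced library nor a second clone was analysed here, so the peaks describe an introduced chimera in 1 myoblast clone. Per the file headers, 26253175 of 32659686 antisera fragments and 23412256 of 40115471 control fragments were kept after duplicate removal. With 1 library per group there was no replicate error and no test between groups, so medians and shares are given with 95% intervals that treat peaks as independent and cover counting error only.

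Dux and its human relative DUX4 are transcription factors of the early embryo. Each binds DNA through a pair of homeodomains, which recognise neighbouring short strings rich in A and T. Dux activates genes and repeats expressed when the mouse embryo has a pair of cells, the 2-cell programme, whose best-known members are the *Zscan4* genes. The start of a coding gene is where the promoter lies, and many promoters carry the CCAAT box, the string bound by the factor NF-Y. The end of a gene holds the signals for cleavage and polyadenylation of its transcript.

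Promoter sequence was read for windows of 300 bases, from 250 before to 50 after an annotated start (RefSeq, GRCm38.p6, which shares its primary assembly with mm10). A Dux-like string, GATTNAATC, was searched on both strands. The 6 member-bearing windows of highest pileup that hold it are shown, because they carry both the string and a peak summit. Each is given as 60 bases, 5′ to 3′ along the gene, with the match in capitals.
*Gm21761*, chr13:119913560-119913619, minus strand: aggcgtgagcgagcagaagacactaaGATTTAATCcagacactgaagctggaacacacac
*Gm13043*, chr4:143511181-143511240, plus strand: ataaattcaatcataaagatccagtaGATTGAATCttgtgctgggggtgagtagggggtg
*Pramel31*, chr4:144357802-144357861, plus strand: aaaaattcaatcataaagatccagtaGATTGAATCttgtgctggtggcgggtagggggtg
*AF067061*, chr13:120262944-120263003, plus strand: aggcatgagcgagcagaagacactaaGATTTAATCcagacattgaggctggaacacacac
*Psap*, chr10:60277460-60277519, plus strand: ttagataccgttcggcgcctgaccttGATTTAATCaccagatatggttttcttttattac
*Gosr2*, chr11:103697877-103697936, minus strand: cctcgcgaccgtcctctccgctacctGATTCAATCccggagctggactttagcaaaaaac
The pileup, which counts the antisera fragments that cover a summit, was 315 at *Gm21761*, 209 at *Gm13043*, 173 at *Pramel31* and 142 at *AF067061*. *Gm21761* resembles *AF067061* and *Gm13043* resembles *Pramel31* in the stretches shown. *Psap*, which encodes the precursor of the lysosomal saposins, had a pileup of 123, and *Gosr2*, a SNARE protein of the Golgi, had 120. The summit lay 1 bp from the match at both *Psap* and *Gosr2* and 7 bp from it at *Gm13043*. At *Gm21761*, *AF067061* and *Pramel31* it lay 52 to 61 bp from the match.

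The 2 strongest member windows without GATTNAATC, and without the DUX4-like string AATCNAATC, belonged to *Zscan4c* and *Zscan4f*. Both windows do hold GATTNNATC, a relaxed form of the Dux-like string that is counted below. They are shown because they had the highest pileups of all members with a local background under 10 fragments, and their capitals mark a shorter string, GATTCAA, chosen after the data were seen.
*Zscan4c*, chr7:11005527-11005586, plus strand: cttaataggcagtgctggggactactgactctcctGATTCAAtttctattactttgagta
*Zscan4f*, chr7:11397718-11397777, plus strand: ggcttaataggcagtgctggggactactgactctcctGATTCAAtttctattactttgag
Pileup was 924 at *Zscan4c* (Poisson 95% interval 865 to 986) and 816 at *Zscan4f* (761 to 874). The stretches of these copies are alike, and no source used here says how reads with several possible placements were treated, so the pileup of any single copy is uncertain. The same holds for the other families of near-identical copies named below.

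Another set of windows carried CCAATCA, in which the CCAAT box is joined to the string AATCA. This string was picked after all strings of 7 bases had been ranked in these windows, and the stretches shown were chosen after their values were seen, with a match within 50 bp of the summit. The capitals mark CCAATCA or, on the other strand, TGATTGG. The *Cnbp* stretch holds another TGATTGG, left in lower case.
*Tmprss11f*, chr5:86632513-86632572, minus strand: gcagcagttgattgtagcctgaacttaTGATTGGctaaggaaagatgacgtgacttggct
*Rdh11*, chr12:79191003-79191062, minus strand: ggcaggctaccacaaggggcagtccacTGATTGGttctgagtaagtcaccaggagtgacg
*Cnbp*, chr6:87851057-87851116, minus strand: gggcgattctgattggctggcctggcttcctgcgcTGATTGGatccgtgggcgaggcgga
*Ears2*, chr7:122067092-122067151, minus strand: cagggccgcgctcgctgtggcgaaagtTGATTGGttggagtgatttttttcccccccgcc
*Bad*, chr19:6942485-6942544, plus strand: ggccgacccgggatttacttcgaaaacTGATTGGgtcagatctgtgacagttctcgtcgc
*H1f3*, chr13:23554954-23555013, plus strand: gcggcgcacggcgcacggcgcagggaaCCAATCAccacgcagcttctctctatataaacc
Pileup was 130 at the membrane serine protease gene *Tmprss11f* and 113 at *Rdh11*, a retinol dehydrogenase gene. It was 101 at *Cnbp*, which encodes a zinc-finger nucleic acid binding protein, and 75 at *Ears2*, the mitochondrial glutamyl-tRNA synthetase gene. *Bad*, a gene of cell death, had 73, and the linker histone gene *H1f3* had 63. The summit lay 4 bp from the match at *Cnbp* and *H1f3*, 8 bp at *Ears2* and *Bad*, 16 bp at *Rdh11* and 45 bp at *Tmprss11f*.

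More members lay just outside a gene's start than in any of the other 3 positions. Strand was known for the nearest gene of 1215 members. Of these, 483 lay outside the start (39.8%, 37 to 42.6%), 291 inside the start (24.0%, 21.6 to 26.5%), 229 inside the end (18.8%, 16.7 to 21.2%) and 212 outside the end (17.4%, 15.4 to 19.7%). Starts thus had 774 of the 1215 (63.7%, 60.9 to 66.4%). Per 1000 coding genes of known strand there were 29.3 members outside the start, 17.7 inside it, 13.9 inside the end and 12.9 outside the end. Counted without strand, 874 members were outside their nearest gene (57.7%, 55.1 to 60.2%) and 642 inside (42.3%, 39.8 to 44.9%). Of the 874, 80 lay inside another coding gene. Genes shorter than 2 kb, 2291 of the 20665, offer less space inside than outside, and what gene length contributes to this split was not tested. The start here is the outer end of the gene span, and a gene can have further annotated starts inside it. The *Bad* summit, for example, lay 662 bp inside its gene and 39 bp from such a start. Members inside starts can thus lie at promoters, and what such starts contribute was not tested.

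The excess outside starts was concentrated next to the start. In steps of 200 bp towards the start the counts were 86, 74, 76, 99 and 148, and past it, inside the gene, they were 62, 50, 59, 59 and 61. The largest step between neighbours was thus at the start itself, from 148 to 62. Around gene ends, counts over the same steps stayed between 33 and 58. Of the 148 summits in the last step, 23 were near 2 or more genes and 19 belonged to families of near-identical copies or predicted genes. Those were picked by name, here and below, as *Zscan4*, *Pramel*, *Usp17l* and *Obox* genes and numbered Gm and LOC genes.

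**Figure D1:**
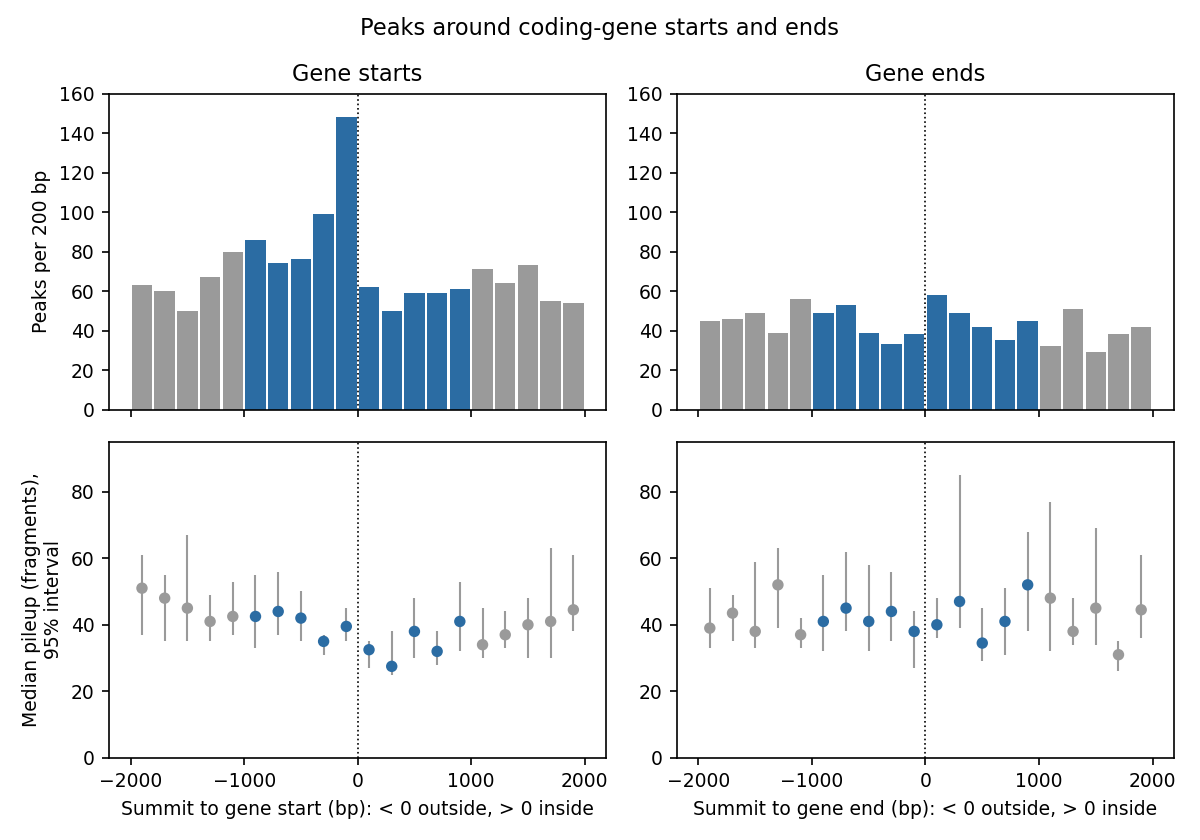
Number of peak summits (upper panels) and their median pileup in antisera fragments with its 95% interval (lower panels) per 200 bp, against distance from the nearest coding gene start or end in bp, negative outside the gene, with members in blue and peaks at 1 to 2 kb in grey. The step just outside the start holds 148 summits and the step just inside it 62, while the counts around gene ends lie between 33 and 58 within 1 kb.

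Members were about as high and as long as other peaks, with lower values inside the start. Median pileup was 39 fragments over the members (37 to 41; quartiles 27 and 68) and 41 over all 49034 peaks (41 to 41; quartiles 29 and 70). Median length was 423 bp (415 to 431 bp) against 431 bp (429 to 432 bp). Peaks outside coding genes at 1 to 5 kb from an end had a median pileup of 43 (41 to 45, n = 2198) and a median length of 435 bp (427 to 443 bp). Those inside a gene over 1 kb from any end had 41 (41 to 42, n = 18869) and 429 bp, and those over 5 kb outside genes had 41 (41 to 41, n = 26451) and 432 bp.

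Outside and inside members overlapped widely. Median pileup was 41 outside (38 to 43; lowest 14, highest 924) and 37 inside (36 to 40; lowest 14, highest 1579). Median length was 428.5 bp outside (418 to 437 bp) and 415 bp inside (400 to 430 bp). The intervals of outside and inside members overlap for both quantities. Pileup and length moved together over the members (Spearman rho 0.743, n = 1516, a description, since a higher peak crosses the caller's threshold over more bases). Among members of pileup 35 to 45, a range chosen after the data were seen, median length was 407 bp outside (398 to 415 bp, n = 159) and 397 bp inside (390 to 408 bp, n = 111).

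Split by strand, the members inside starts were the lowest and shortest. Their median pileup was 34 (31 to 36; quartiles 25 and 60) and their median length 398 bp (389 to 414 bp). Outside starts the values were 40 (36 to 43) and 435 bp (417 to 449 bp). Inside ends they were 41 (38 to 47) and 444 bp (407 to 464 bp), and outside ends 42.5 (38 to 45) and 418.5 bp (400 to 435 bp). The pileup interval inside starts stands below those of both end positions and touches that outside starts at 36. In the first 200 bp inside the start the median was 32.5 (27 to 35, n = 62), against 39.5 (35 to 45, n = 148) in the last 200 bp outside it, intervals that touch at 35. Members near 2 or more genes had a median pileup of 33.5 (29 to 37, n = 134), against 40 (38 to 41, n = 1382) near 1 gene.

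**Figure D2:**
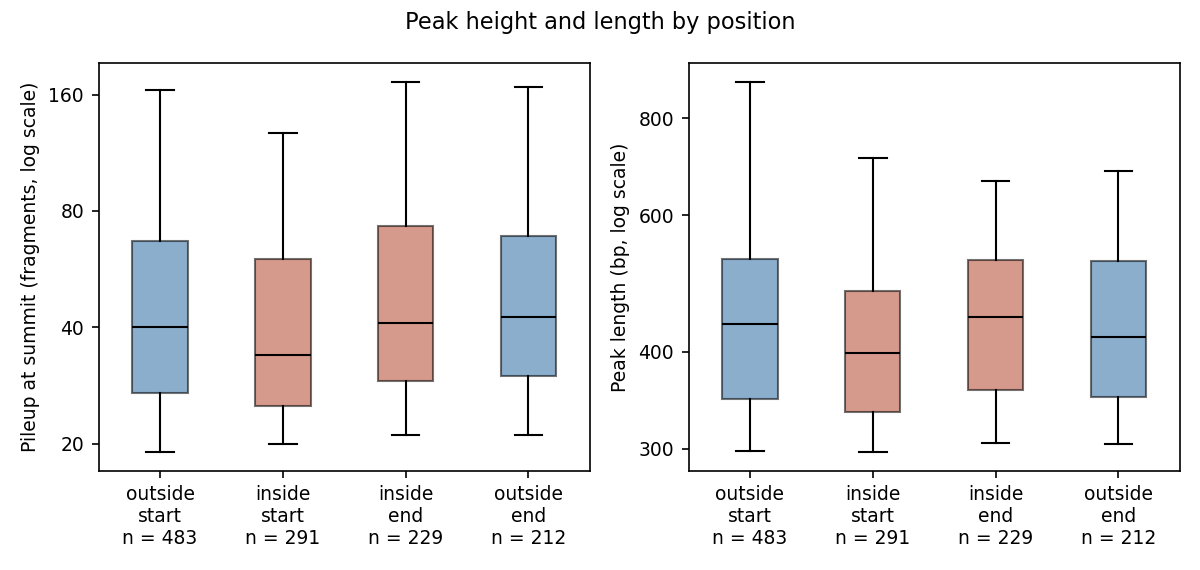
Pileup in antisera fragments (left) and peak length in bp (right), both on log axes, of the members in each of the 4 positions of known strand. Boxes span the quartiles with a line at the median, and whiskers run from percentile 5 to percentile 95. Members inside starts have the lowest medians, 34 fragments and 398 bp, and the boxes of all positions overlap.

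Strong peaks were about as frequent among the members as in the whole list, with lower shares inside starts. Fold enrichment, the authors' own value for each peak, divides pileup plus 1 by local background plus 1. It reached 10 in 543 members (35.8%, 33.4 to 38.3%), beside 38.2% of all chromosome 1 to 19 peaks. A pileup of 100 or more was found in 217 members (14.3%, 12.6 to 16.2%), beside 14.7% of all peaks. Inside starts 27 of 291 reached a pileup of 100 (9.28%, 6.20 to 13.2%), against 13.9% outside starts (10.9 to 17.3%), 17.0% inside ends (12.4 to 22.5%) and 16.0% outside ends (11.4 to 21.7%). Within 200 bp inside the start it was 2 of 62 (3.23%, 0.393 to 11.2%). A fold of 10 was reached by 30.2% inside starts (25 to 35.9%) and by 35.8% outside starts (31.5 to 40.3%). Inside ends it was 40.2% (33.8 to 46.8%) and outside ends 37.3% (30.7 to 44.2%). Both intervals inside starts stand below the shares of all peaks, and both overlap those of the other 3 positions.

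The local background taken from the control library had a floor of 4.01 fragments. It lay above that floor in 248 members (16.4%, 14.5 to 18.3%), beside 22.1% of all peaks. It did so in 67.1% of the members on chromosome 15 and 36.9% of those on chromosome 4, against 2.33 to 18.4% on the other chromosomes. Only 3 members had a background of 10 fragments or more: *LOC100504180* (pileup 1579, background 39.8, fold 38.7), *Ugt1a1* (294, 14.0 and 19.6) and *Gm13212* (138, 15.1 and 8.61). The *Ugt1a1* summit was near 7 coding genes, the most of any member.

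The strongest members outside starts were the *Zscan4* genes, which encode SCAN-domain zinc-finger proteins. Besides *Zscan4c* and *Zscan4f*, *Zscan4d* had a pileup of 690 (640 to 744) and *Zscan4b* 650 (601 to 702), and all 4 summits lay 150 to 192 bp outside the start. The *Zscan4d* peak was the longest member at 5080 bp, followed by *Tcstv1*, a gene of the 2-cell stage, at 2695 bp. *Dact3*, which encodes a modulator of Wnt signalling, followed with 556 (511 to 604). Its peak spanned 16874473 to 16875155 on chromosome 7, 683 bp, with its summit 473 bp outside the start. The Prame-like genes *Pramel24* (428) and *Pramel11* (419) had summits 157 and 154 bp outside their starts on chromosome 4. *Ddx19b*, an RNA helicase gene, had 258 at 765 bp.

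Among members with a local background under 10 fragments, those in the other positions had pileups below the *Zscan4* values. Inside the start, *Fam207a* had a pileup of 442 (402 to 485), 164 bp from its start, *Lmbr1l* 356, and *Ergic2*, a gene of transport between the endoplasmic reticulum and the Golgi, 281. The DNA damage checkpoint gene *Rad1* had 249 there and *Il18rap*, an interleukin receptor subunit gene, 229. Inside the end, *Celf1*, which encodes an RNA-binding regulator of splicing, had 405 (366 to 446) in a peak at 91018729 to 91019387 on chromosome 2. There the keratin gene *Krt10* had 363 (327 to 402), *Aknad1* 254, *Metap1*, a methionine aminopeptidase gene, 219, and *Bzw1* 210. Outside the end, *H2ac1*, a histone H2A gene, had 247, *Potegl* 244, the mitochondrial ribosomal protein gene *Mrpl21* 233, *Tlcd2* 232 and *Spats2l* 211. The summit at *Tlcd2* lay 19 bp past the gene end. Among genes of unknown strand, *Abhd3* on chromosome 18 had 435 (395 to 478), *Znhit3* 266, the caveolar protein gene *Cavin3* 261, *Smu1* 243 and *P2rx2*, an ATP-gated channel gene, 209.

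At the limit of the rule, *Ccdc122* (pileup 67) and *Mrgprg* (27) had summits 1000 bp from an end and were members. The nearest peaks beyond it, at *2610507B11Rik* (30) and *4930590J08Rik* (93), lay 1001 and 1002 bp away.

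Promoter windows that held a member summit carried the Dux-like string more often than other promoters. There were 240 such windows, of 229 genes and 213 members, among 20078 windows of 16452 coding genes (1.20%). GATTNAATC matched in 20 of the 240 (8.33%, 5.16 to 12.6%), against 0.254% of all windows. Read the other way, 20 of the 51 windows with that string held a member summit (39.2%, 25.8 to 53.9%). By name, 4 of the 20 belonged to copy families or predicted genes. The names do not pick *AF067061* or *Duxf3*, whose windows also hold the string, so both remain where such families are left out below. The DUX4-like string AATCNAATC matched in 8 of the 240 (3.33%, 1.45 to 6.46%) against 0.443%. The relaxed string GATTNNATC, which includes every GATTNAATC match, was found in 45 (18.8%, 14.0 to 24.3%) against 1.45%. A match is a description of the letters, not a shown binding site.

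Shorter strings covered most of the windows. Among all 512 strings of 5 bases counted with their reverse complements, AATCA ranked first by the difference between member windows and all windows, followed by CAATC and then by the CCAAT box. AATCA was in 191 of the 240 windows (79.6%, 73.9 to 84.5%) against 34.5% of all windows. The CCAAT box, fixed as a comparison, was in 164 (68.3%, 62.0 to 74.2%) against 38.1%. Their union CCAATCA ranked first of 8192 strings of 7 bases and was in 93 windows (38.8%, 32.6 to 45.2%) against 8.97%. GATTCAA, the string of the *Zscan4* stretches above, was in 34 windows (14.2%, 10.0 to 19.2%) against 1.83%. The strings AATCA and CCAATCA, like GATTCAA, were chosen on these windows, so their shares describe them and are no independent evidence.

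Among windows without the joined string, both shorter strings were also more frequent in member windows, a comparison added after the data were seen. Counted over all windows, only AATCA without CCAATCA was more frequent, in 40.8% of member windows (34.6 to 47.3%) against 25.5%. CCAAT without CCAATCA was in 29.6% (23.9 to 35.8%) against 29.2%. Among windows without CCAATCA, the CCAAT box was in 71 of 147 member windows (48.3%, 40 to 56.7%) and in 32.0% of all 18277 windows. AATCA was in 98 of the 147 (66.7%, 58.4 to 74.2%) against 28.0%. Windows with neither AATCA nor CCAAT made up 9.17% (5.83 to 13.5%) against 45.6%. Median GC content was 53.3% in the member windows and 57.0% in all windows. Within windows of 45 to 60% GC, AATCA was in 81.0% against 38.6%, CCAATCA in 48.4% against 10.6%, and GATTNAATC in 4.76% (1.77 to 10.1%) against 0.258%. Without copy families and predicted genes, AATCA was in 79.0% against 34.0%, and GATTNAATC in 7.31% against 0.194%.

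**Figure D3:**
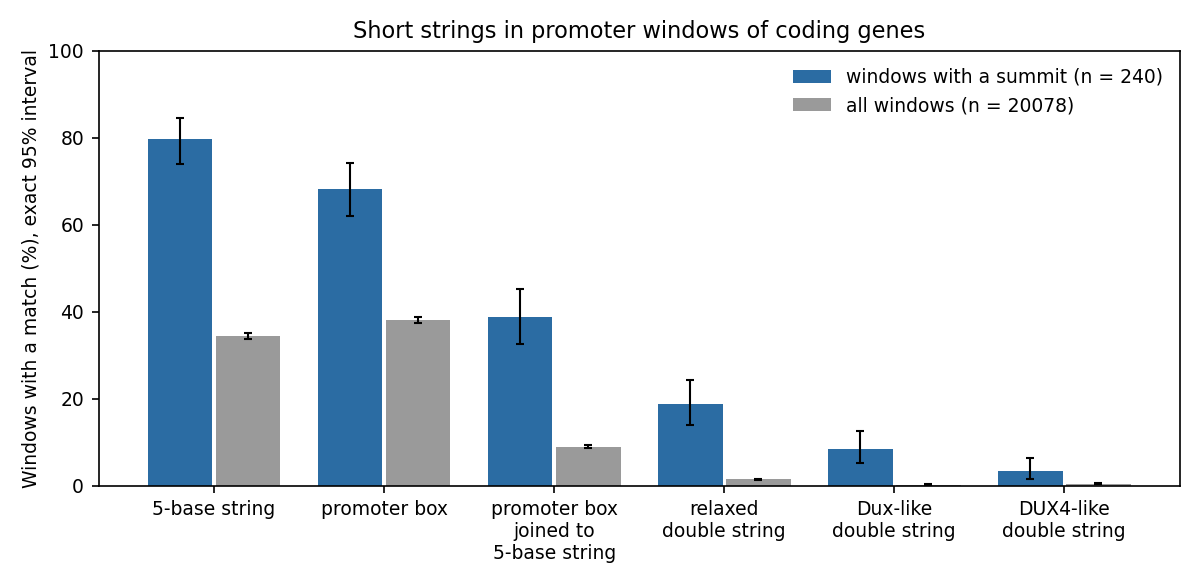
Percent of 300-base promoter windows that hold each string, for windows with a member summit (n = 240) and all windows (n = 20078), with exact binomial 95% intervals. All 6 kinds of string plotted are more frequent in the member windows, from 3.33% for the DUX4-like string to 79.6% for the 5-base string AATCA.

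Summits lay close to the matches. Among the 169 members whose window held AATCA, the median distance from summit to the nearest match was 13 bp, and 138 summits were within 50 bp (81.7%, 75.0 to 87.2%). Of all positions in those windows, 44.2% lay that close to a match. For CCAATCA the median was 18 bp in 75 members, with 72.0% within 50 bp (60.4 to 81.8%) against 40.3% of positions. The CCAAT box alone had a median of 30 bp in 144 members, with 59.7% (51.2 to 67.8%) against 47.7%. GATTNAATC had 11.5 bp in 18 members, with 77.8% (52.4 to 93.6%) against 32.9%. For each of these strings, the CCAAT box included, the interval of summits within 50 bp stood above the share of positions.

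**Figure D4:**
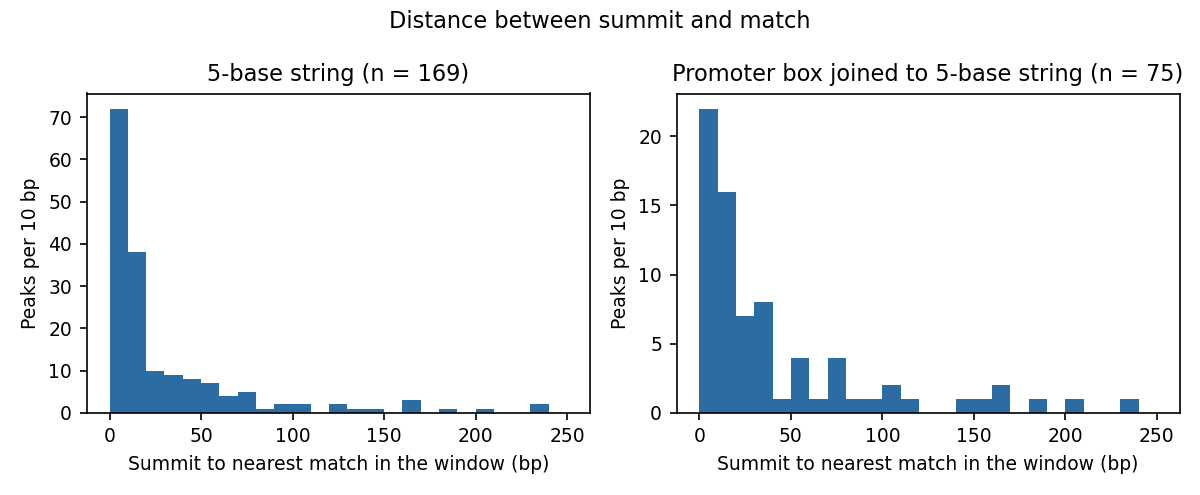
Number of members per 10 bp of distance between summit and nearest match in bp, for the 5-base string AATCA (left, n = 169) and the promoter box joined to it, CCAATCA (right, n = 75). The first 10 bp hold 72 and 22 members, the highest bar of each panel.

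The intervals of members with and without the relaxed string GATTNNATC were separate only with the copy families included. Their median pileup was 79 (41 to 93, n = 42), against 35 in members without the string (33 to 37, n = 171). Without the copy families and predicted genes, left out after the data were seen, it was 46 (28 to 80, n = 32) against 35 (33 to 37, n = 160), and these intervals overlap. With GATTNAATC it was 71 (29 to 123, n = 18) against 36 (34 to 38, n = 195), and with AATCNAATC 53 (20 to 185, n = 8) against 36 (34 to 41, n = 205), and both pairs of intervals overlap. With CCAATCA it was 34 (29 to 38, n = 75) against 37 (35 to 46, n = 138), which overlap as well.

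A member lay near 1586 of 20665 coding genes, or 7.67%, the background for each gene list below. The lists are families and pathways, and a peak between close genes counts for each of them. Of the 30 measured genes of the 2-cell programme, 16 had a member (53.3%, 34.3 to 71.7%), with a median pileup of 166 (17 to 924) against 40 for all coding genes with a member. In the 11 of known strand the member was at the start in every case. *Zfp352*, which encodes a zinc-finger protein of the 2-cell stage, had 174 at 321 bp, *Tcstv3* 150 at 186 bp and *Tmem92* 127 at 65 bp. *Duxf3*, a Dux gene, had 80 at 166 bp and a fold of 7.38. Whether reads from the transgene contributed there was not tested. Low values stood at *Pramel18* (17), *Pramel25* (22) and *Usp17lc* (26), and no member was near *Sp110*, *Nelfa*, *Arg2*, *Ubtfl1* or 4 of the 5 *Tdpoz* genes. The list was known from earlier work on these data, so its share is no independent evidence.

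Histone genes had a member in 24 of 73 (32.9%, 22.3 to 44.9%), through 16 peaks, since they sit side by side in clusters and 64 of the 73 are under 2 kb long, so that the windows at both ends overlap. All 16 peaks whose nearest gene is a histone gene lay outside it, at 51 to 865 bp, and 5 of them reached a fold of 10. Genes this short leave less space inside than outside, and what gene length contributes to that position was not tested. At −log10 q of 10 or more the count of genes was 15 (20.5%, 12 to 31.6%), beside 6.35% of all coding genes. Over the 16 peaks of all 24 genes, pileups ran from 18 to 247, with a median of 32. After *H2ac1* came *H2ac19* (159), then a peak of 74 shared by *H1f1* and *H3c1*.

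Zinc-finger genes named Zfp, a large family of DNA-binding proteins, had a member in 48 of 388 (12.4%, 9.26 to 16.1%), with a median pileup of 37.5. The member was at the start in 32 of them and at the end in 7. After *Zfp352*, which this list shares with the 2-cell programme, came *Zfp37* (136), *Zfp945* (127) and *Zfp455* (118).

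For several lists of broadly expressed genes the interval included 7.67%. Members were near 10 of 83 genes of RNA polymerase II and general transcription (12.0%, 5.93 to 21.0%), among them the TFIID subunit gene *Taf13* (179), the elongation factor gene *Supt6* (90, 35 bp outside its start) and *Polr2a* (84), which encodes the largest subunit of the polymerase. The *Polr2a* peak lay nearer to *Slc35g3*, at 369 bp against 882 bp. Members were near 9 of 72 splicing genes (12.5%, 5.88 to 22.4%), among them *Celf1* and *Hnrnpa1* (87), whose peak is shared with the heterochromatin protein gene *Cbx5*. They were near 5 of 40 proteasome genes (12.5%, 4.19 to 26.8%), all at the start, from 20 to 73 at *Psmc6*, an ATPase subunit of the proteasome cap. At −log10 q of 10 or more, 3 proteasome and 3 translation factor genes had a member. Translation factors had 5 of 52 (9.62%), led by *Eif3m* (92), and cytosolic ribosomal proteins 6 of 76 (7.89%), led by *Rps21* (67). The respiratory chain had 9 of 93 (9.68%), led by the assembly factor gene *Ndufaf5* (142). Next came *Uqcrq* (132), a subunit of complex III, whose peak lay nearer to *Gdf9*, at 403 bp against 460 bp. Cell cycle genes had 8 of 76 (10.5%), led by the cyclin gene *Ccne2* (197), and chromatin regulators 10 of 114 (8.77%), led by the deacetylase gene *Hdac11* (125).

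Lists of muscle, cell death, matrix and signalling genes had intervals that included 7.67%. Skeletal muscle genes had a member in 4 of 60 (6.67%, 1.85 to 16.2%), all at the start. *Mef2d*, a transcription factor of muscle differentiation, had a pileup of 102 at 43 bp outside its start (83.2 to 124). The acetylcholine receptor subunit gene *Chrna1* had 50, the myogenic regulator *Myog* 31 (21.1 to 44.0) and *Chrnb1* 19. The p53 and cell death list had 3 of 49 (6.12%), namely *Fas* (107), *Bad* (73) and *Casp8* (45). Extracellular matrix and adhesion genes had 8 of 71 (11.3%), among them the collagen genes *Col6a1* (175, past its end) and *Col3a1* (122). Signalling genes of the Wnt, Notch, TGF-beta and FGF pathways had 7 of 102 (6.86%), among them *Dact3*, the growth factor genes *Fgf1* (169) and *Bmp7* (128), and the Wnt receptor gene *Fzd4* (69).

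Receptor families used in smell had shares under that of all coding genes. Olfactory receptor genes had a member in 52 of 1104 (4.71%, 3.54 to 6.13%) and vomeronasal receptor genes in 11 of 354 (3.11%, 1.56 to 5.49%), and both intervals lie under 7.67%. At −log10 q of 10 or more the vomeronasal count was 6 (1.69%), beside 6.35% of all coding genes. What gene length contributes to these shares was not tested. Their members were not all low, with *Olfr1465* at 167 and *Vmn1r13* at 74. Solute carriers had 25 of 376 (6.65%), led by the mitochondrial carrier gene *Slc25a32* (161), voltage-gated and potassium channels 7 of 131 (5.34%), led by *Cacna1e* (100), and protocadherins 3 of 67 (4.48%).

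**Figure D5:**
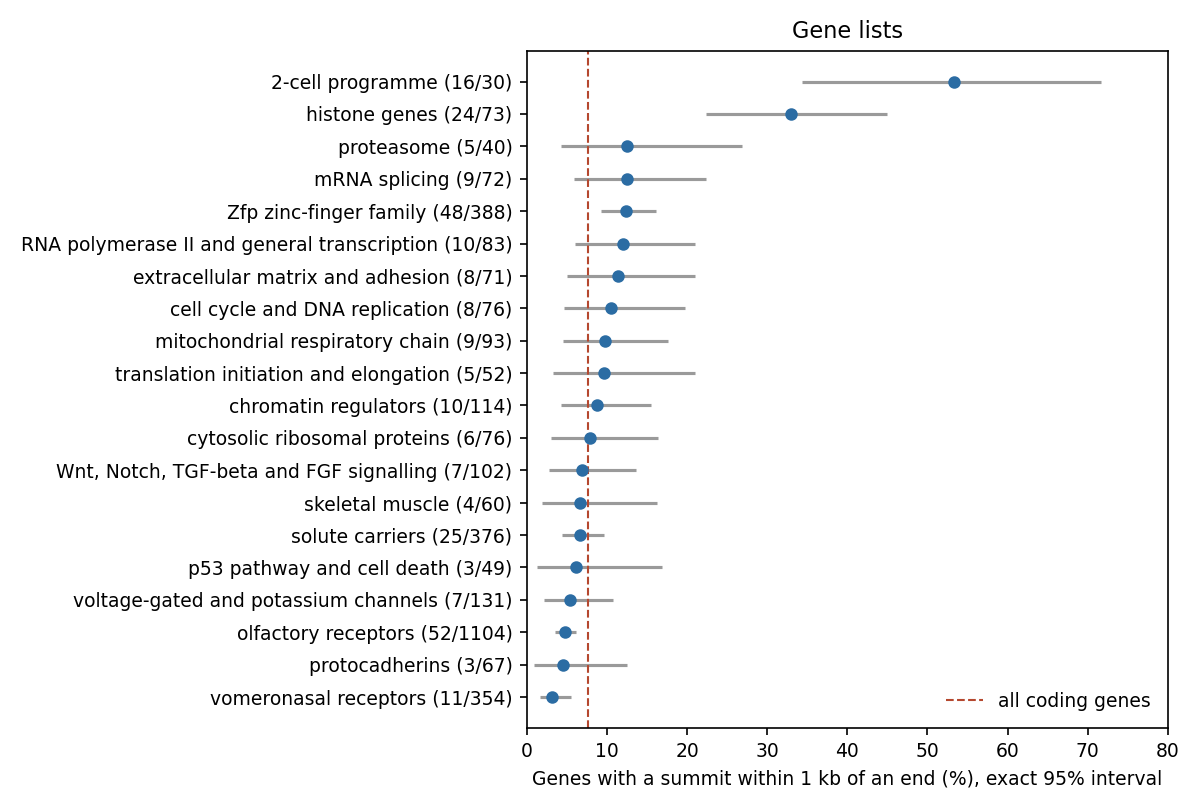
Percent of the coding genes of each list with a member, with exact binomial 95% intervals, and a line at the 7.67% of all coding genes. The 2-cell programme (53.3%), histone genes (32.9%) and Zfp genes (12.4%) stand above the line and the olfactory (4.71%) and vomeronasal (3.11%) receptor genes below it, intervals included.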

How the data were processed

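ChIP-seq of 1 antisera and 1 control library was analysed from 1 deposited peak table. The submitters' processing notes name BWA, MACS2 and mm10. Peaks were called by the authors, per the file headers, with MACS 2.1.0.20151222 on paired fragments at a q-value threshold of 0.01, keeping at most 1 fragment per position. Mapping settings, filters and the treatment of multi-mapping reads are not given in sources used here. The deposited pileup is, per the file headers, a signal in antisera fragments, the deposited −log10 values are those of the p-value and q-value of each peak, and the deposited fold is a ratio over local background, with 1 added to both terms.

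Summits were placed against RefSeq coding gene spans (GRCm38.p6). Strand came from the promoter table, which gave it for 16457 of 20665 coding genes (79.6%). It was lacking for 301 members, 49 of them on chromosome 18. Intervals are order-statistic for medians, exact binomial for shares and Poisson for pileups. No test was run, because each group had 1 library. Named genes were the 20 members of highest −log10 p with background under 10, the 5 of highest fold per position, up to 4 per gene list by pileup, the 5 longest, and the peaks at the distance limit. Genes outside that rule, such as the 3 members of background 10 or more, *Tcstv3*, *Tmem92* and the low members of the 2-cell list, were chosen after their values were seen. Members and lists were chosen with earlier results of these data known. The 20 lists had 9 entries without a match on these chromosomes. Calculations used Python 3.11.15, pandas 2.3.3, numpy 2.4.6 and scipy 1.17.1, and the assignment was tested on simulated data. Alternatives were stricter q-values, other distances and thresholds, any overlap, and omission of groups of peaks or genes.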

Additional observations from a re-analysis of the deposited data

Results flagged for a closer look

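Chromosome X was outside the rule but held such peaks as well. Of its 2320 peaks, 49 had a summit within 1 kb of a coding gene end (2.11%), which is 50.7 per 1000 of its 966 coding genes, with a median pileup of 48 fragments.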

How the results depend on the processing

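Of 180 values recomputed under 16 settings, 133 stayed within their interval or within 1.5 times their count, 47 moved and 0 changed sign. Those that moved include 31 of the 84 values for gene lists. Counts and shares cannot change sign, and counts at another distance or shares at a higher threshold move with the setting itself. Members numbered 813 within 500 bp and 2822 within 2000 bp, and the share outside starts was 45.4% and 35.2%. At −log10 q of 10 or more, 43.3% of members reached a fold of 10 and 17.3% a pileup of 100. The shares of all peaks at that q were not computed, so these values do not compare members with other peaks. A fold of 20 was reached by 13.7% of members and 13.8% of all peaks, and a pileup of 200 by 2.84% and 3.54%. AATCA was in 63.6% of windows that any part of a member overlapped, and GATTNAATC in 4.76% of windows of 45 to 60% GC. The difference in median pileup between outside and inside starts, 6 fragments, was 3.5 without copy families and predicted genes. That between outside and inside members, 4 fragments, was 1.5 within 500 bp. No paired analysis was possible because each group had 1 library. At this depth the pileup of 1 peak near the median carries a wide counting error, and no value covers variation between cultures.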
